A study of Arabidopsis thaliana with 8 samples.

Results

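The 38 genes described here make, regulate, move and break down glucosinolates and camalexin, the sulfur-containing defence compounds of Arabidopsis thaliana. They were picked by identifier from a list of named pathway genes, and all 38 were found among the 38092 gene entries analysed. No expression threshold was used to pick them, but the choice was made with earlier results of these data known. By role, they comprise 3 regulators of the aliphatic branch, 3 regulators of the indolic branch, 6 genes of chain elongation, 7 aliphatic core enzymes, 5 indolic enzymes, 3 enzymes shared by both branches, 3 camalexin enzymes and 8 genes of breakdown and export.

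Aliphatic glucosinolates are built from methionine, whose side chain is lengthened by repeated cycles in the plastid, and indolic glucosinolates from tryptophan. In both branches cytochrome P450 enzymes of the CYP79 and CYP83 families, which carry a heme iron, oxidise the amino acid, after which sulfur is added from glutathione and the core is finished by glucosyltransferases and sulfotransferases. Camalexin leaves the indolic branch at indole-3-acetaldoxime, the product of CYP79B2 and CYP79B3. When tissue is wounded, myrosinases split glucosinolates, and specifier proteins set whether isothiocyanates, nitriles or epithionitriles form.

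The leaves came from Col-0 wild-type plants in 4 groups of 2 libraries each: iron deficiency (no iron supplied), double deficiency (neither iron nor copper sulfate supplied, with the chelator bathocuproine disulfonate at 10 µM, which binds copper), copper deficiency (no copper sulfate, with the same chelator) and control (1 µM copper sulfate, with iron). All plants had 12 d on soil and 10 d of hydroponics with 1 µM copper sulfate before the 10 d of treatment, and rosette leaves were cut 4 h after light onset. The stated age of 20 d is shorter than these periods added up. No label says that libraries of the same group stem from separate cultures, so the p-values measure the spread between these libraries, which may be technical.

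Depth is known here only relative to the deepest library, at 0.728 to 1 of it. Genes at 1 FPKM or more (FPKM, fragments per transcript length and library size) numbered 16842 to 18396 per library, and RNA composition moved with iron. Nuclear coding genes held 69.2 to 78.5% of the FPKM in the 4 libraries without iron and 78.7 to 93.4% in the 4 with iron. Ribosomal RNA held 1.66 to 5.94% in libraries without iron, against 0.0760 to 0.661% with iron, and mitochondrial genes 0.0699 to 0.598%, against 0.00324 to 0.0147%. Copper 2 stood apart with 0.278% chloroplast FPKM, against 5.83 to 11.2% in the other 7 libraries. The treatments left their known marks for iron: the iron-response regulator BHLH39 stood at 346 and 375 FPKM in iron-deficient leaves, against 0.174 and 0.151 FPKM in controls. For copper, the superoxide dismutase CSD2 stood at 322 and 355 FPKM in copper-deficient leaves, against 595 and 847 FPKM in controls, a difference that was not called (log2 -1.07 ± 0.18, adjusted p = 0.301). In double deficiency against control CSD2 changed by 0.03 and was not called. Against copper deficiency it was called higher (log2 1.10), a call lost under median-ratio scaling. CSD2 thus did not mark the lack of copper in doubly deficient leaves. Of 5 leaf mesophyll markers, 3 fell and 1 rose in iron and in double deficiency, and their summed level was 21799 and 27049 FPKM in iron-deficient, 23089 and 25260 in doubly deficient, 48355 and 46631 in copper-deficient and 46975 and 48597 FPKM in control leaves. Dividing-cell markers summed to 29.7 and 35.1 FPKM in iron-deficient, 35.9 and 45.8 in doubly deficient, 16.1 and 0.664 in copper-deficient and 1.42 and 0.743 FPKM in control leaves. The 4 root markers summed to at most 0.515 FPKM, with the root hair gene EXPA7 at 0 in all 8 libraries. In whole leaves, fewer cells of a type and less RNA per cell cannot be told apart, and the part of these markers and of RNA composition in the results below was not tested, beyond the scaling to nuclear coding genes and the omission of each library.

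Of the 38 genes, 36 passed the filter (1 FPKM or more in 2 or more libraries) and were tested. A gene is called when its limma adjusted p, over all 19170 tested genes, lies under 0.05. Log2 changes are differences of log2(FPKM + 1) with their SE, which understates the change of low genes, and means of FPKM are given with the SD of 2 libraries. In iron deficiency against control 3 pathway genes rose and 6 fell, or 8.33 and 16.7% of the 36, while of all tested genes 27.2% rose and 6.85% fell. In double deficiency against control 5 rose and 5 fell, 13.9% each, against 39.2 and 5.99% of all genes. In double against copper deficiency 6 rose and 5 fell, or 16.7 and 13.9%, against 39.4 and 6.4% of all genes. The median change of the 36 genes was 0.02, 0.12 and 0.06 in these 3 comparisons, and that of all tested genes was 0.27, 0.41 and 0.41.

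That rise of the median gene depends on the scaling. The deposited FPKM called 79.9% of the changed genes higher in iron deficiency, 86.7% in double deficiency against control and 86.0% in double against copper deficiency. Median-ratio scaling gave 50.1, 52.2 and 50.7% and brought the medians to 0.01, 0.02 and 0.01, and quantile normalization gave 49.6, 47.5 and 46.3%. Under median-ratio scaling the pathway genes that fell numbered 11 in iron deficiency, 10 in double deficiency against control and 11 in double against copper deficiency, and those that rose numbered 2, 3 and 3. The calls that fell in iron deficiency also dropped to 2 without control 1, control 2 or iron 1 and to 3 without iron 2, where libraries are named by group and replicate.

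**Figure D1:**
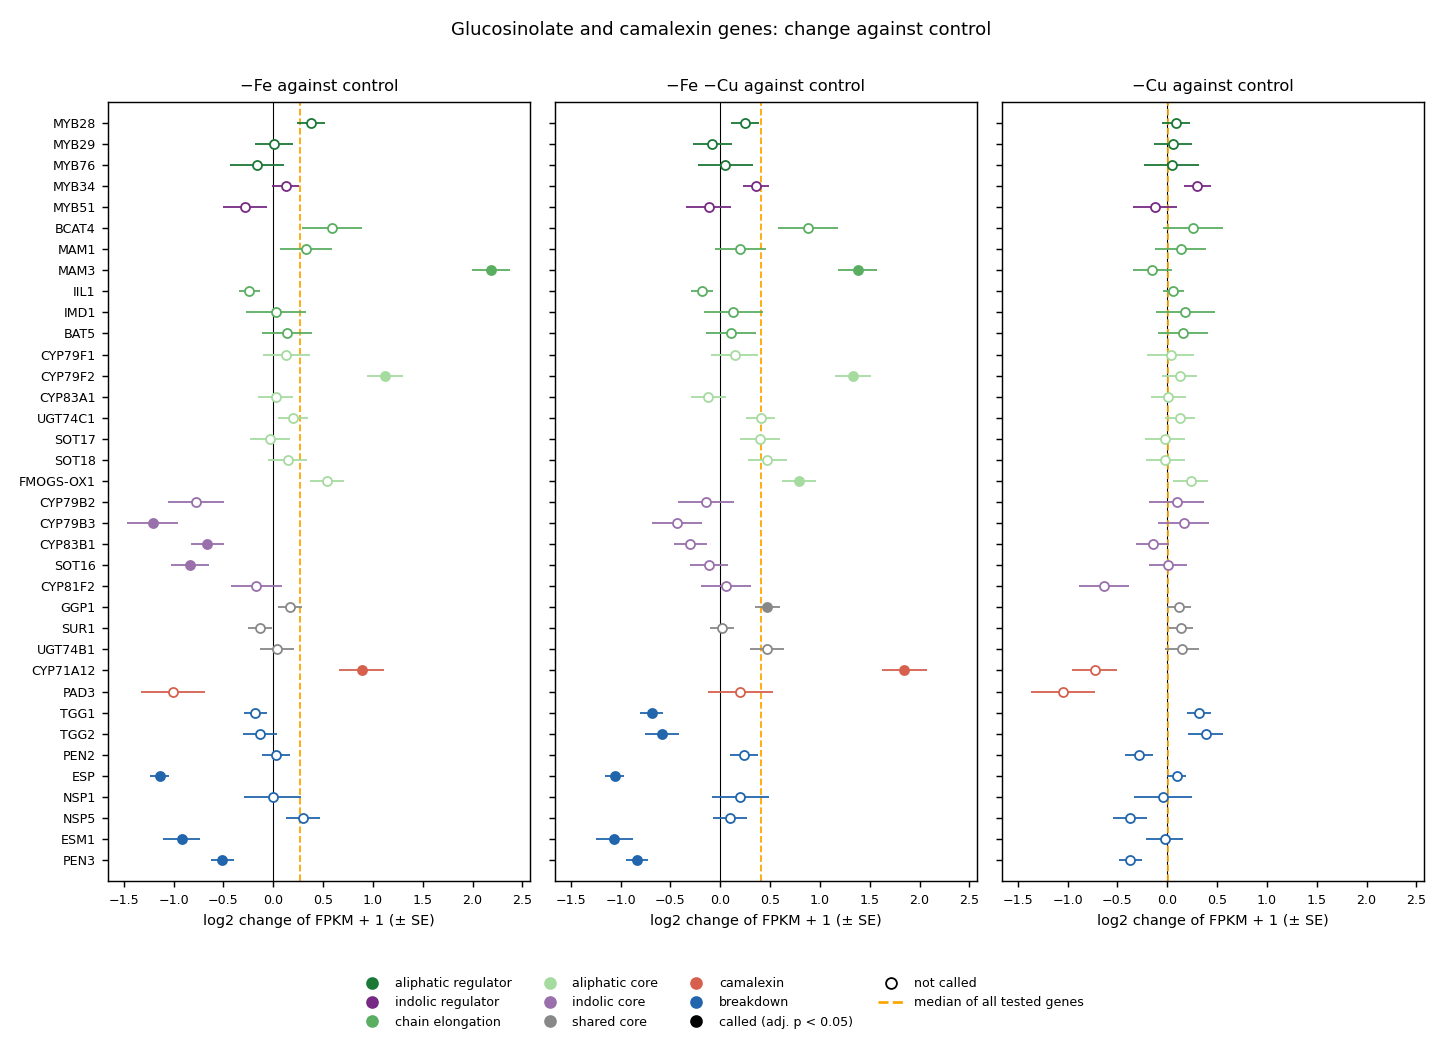
Log2 change of FPKM + 1 (± SE) for the 36 tested pathway genes in iron deficiency (-Fe), double deficiency (-Fe -Cu) and copper deficiency (-Cu), each against control. Filled points are called, colours give the role, and the dashed line is the median of all 19170 tested genes. Calls in the indolic core appear in the iron panel, calls in breakdown in the iron and double panels, and none in the copper panel.

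Of the 6 MYB activators among the pathway genes, 5 were tested, and limma called 0 of them in any of the 6 comparisons, with 1 at an unadjusted p under 0.05 in iron deficiency, MYB28 (AT5G61420), and 1 in double deficiency against control, MYB34 (AT5G60890). Both were called higher in these comparisons under nuclear coding scaling. In double against copper deficiency MYB29 was called lower under median-ratio scaling, and MYB34 was called lower under quantile normalization. MYB28, the main activator of aliphatic genes, stood at 62.0 and 72.2 FPKM in iron-deficient leaves, 65.5 and 56.8 in doubly deficient leaves, 49.7 and 59.8 in copper-deficient leaves and 54.3 and 48.4 FPKM in controls. Its iron-deficient values lay above both controls, but the change of 0.38 ± 0.14 was not called (adjusted p = 0.0808). MYB29 (AT5G07690), which shares this role, held 44.4 and 49.4 FPKM in iron-deficient, 54.2 and 35.7 in doubly deficient, 46.6 and 50.7 in copper-deficient and 49.3 and 44.0 FPKM in control leaves, so that all groups overlapped. MYB76 (AT5G07700), another activator of the aliphatic genes and a neighbour of MYB29 on chromosome 5, was low throughout, at 2.58 and 2.86, 3.43 and 3.19, 3.39 and 3.19, and 4.54 and 2.12 FPKM in iron, double and copper deficiency and in controls.

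Among the activators of indolic genes, MYB34 was the highest in these leaves. It stood at 18.1 and 20.7 FPKM in iron-deficient, 24.0 and 21.9 in doubly deficient, 19.9 and 24.4 in copper-deficient and 17.0 and 18.4 FPKM in control leaves. The doubly deficient libraries lay above both controls (0.36 ± 0.13, adjusted p = 0.0690). MYB51 (AT1G18570) held 2.77 and 3.49, 3.66 and 3.55, 3.37 and 3.84, and 3.11 and 5.08 FPKM in iron, double and copper deficiency and in controls, and all groups overlapped with controls. MYB122 (AT1G74080) was listed at no more than 0.484 FPKM, in control 1, and was not tested.

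Chain elongation adds methylene groups to methionine before the core is built. Of its 6 genes, MAM3 (AT5G23020) rose in iron and in double deficiency, and the other 5 were not called. MAM3, a methylthioalkylmalate synthase that can carry the side chain to long lengths, stood at 28.4 and 36.7 FPKM in iron-deficient, 19.7 and 16.5 in doubly deficient, 4.90 and 6.39 in copper-deficient and 7.08 and 5.64 FPKM in control leaves. Every library without iron lay above every library with iron, and the iron-deficient libraries lay above the doubly deficient ones. MAM3 averaged 32.6 ± 5.89 FPKM in iron deficiency and 6.36 ± 1.02 FPKM in controls, a log2 change of 2.19 ± 0.19 (adjusted p = 0.000846), the highest among the 36 genes in this comparison. The change was 1.38 ± 0.19 in double deficiency against control (adjusted p = 0.00250) and 1.53 ± 0.19 in double against copper deficiency (0.00172). The step between double and iron deficiency, -0.81 ± 0.19, was not called (adjusted p = 0.102).

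MAM1 (AT5G23010), the neighbouring synthase that makes the short-chain products dominant in Col-0, was expressed far higher than MAM3. It held 232 and 241 FPKM in iron-deficient, 284 and 165 in doubly deficient, 210 and 204 in copper-deficient and 218 and 163 FPKM in control leaves, and its change in iron deficiency was 0.33 ± 0.26 (adjusted p = 0.367). MAM3 lies on chromosome 5 from 7718118 to 7721866 and MAM1 from 7703041 to 7706973. Their coding sequences are 83.8% identical, with no identical run longer than 30 bases, and how the authors' counting divided shared reads was not tested. BCAT4 (AT3G19710), the aminotransferase that opens the cycle, stood at 184 and 192 FPKM in iron-deficient, 321 and 165 in doubly deficient, 153 and 145 in copper-deficient and 144 and 107 FPKM in control leaves. All its iron-free libraries lay above those with iron, yet the spread between the doubly deficient libraries was wide, and its changes of 0.59 ± 0.30 in iron deficiency (adjusted p = 0.179) and 0.88 ± 0.30 in double deficiency (0.0545) were not called. The isomerase subunit IIL1 (AT4G13430), the dehydrogenase IMD1 (AT5G14200) and the plastid transporter BAT5 (AT4G12030) ranged from -0.24 to 0.14 in iron deficiency and from -0.18 to 0.13 in double deficiency. IMD1 overlaps by 25 bases with AT5G14210, listed at 0 in double 1 and copper 1 and at 11.1 to 14.8 FPKM elsewhere. IMD1 was highest in those same libraries, at 223 and 201 FPKM, and how reads were divided between these loci was not tested. Under median-ratio scaling IIL1 was called lower in iron deficiency, in double deficiency and in double against copper deficiency, and in the last 2 also under quantile scaling. BCAT4 was called higher in double deficiency against control with the filter at 5 FPKM, under nuclear coding scaling and with the replicate block.

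In the aliphatic core, the P450 pair that converts elongated methionine to aldoximes divided. CYP79F2 (AT1G16400), known to act on long-chain substrates, stood at 5.68 and 7.41 FPKM in iron-deficient, 7.93 and 7.45 in doubly deficient, 2.61 and 2.91 in copper-deficient and 2.81 and 2.11 FPKM in control leaves. No library without iron overlapped with a library with iron. CYP79F2 rose by 1.12 ± 0.18 in iron deficiency (adjusted p = 0.00574), by 1.33 ± 0.18 in double deficiency (0.00211) and by 1.21 ± 0.18 in double against copper deficiency (0.00293).

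CYP79F1 (AT1G16410), which accepts short and long chains, was the more abundant of the pair, with 115 and 123 FPKM in iron-deficient, 144 and 100.1 in doubly deficient, 136 and 90.3 in copper-deficient and 115 and 102 FPKM in control leaves. Its groups overlapped, and its change was 0.13 ± 0.24 in iron deficiency (adjusted p = 0.709). The genes lie side by side on the plus strand of chromosome 1, CYP79F2 from 5605044 to 5607498 and CYP79F1 from 5608682 to 5612064. Their coding sequences are 91.9% identical with an identical run of up to 100 bases, so the division of reads between them is uncertain, and the lower gene is the more exposed to it.

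The 250 bases upstream of each start are shown because these neighbours had unlike responses (RefSeq, TAIR10.1, chr1:5604794-5605043 and chr1:5608432-5608681, plus strand). Capitals mark, on either strand, the W-box core TTGAC of WRKY factors and the AC element ACCNACC of MYB factors. The G-box CACGTG of MYC factors was searched as well.
CYP79F2: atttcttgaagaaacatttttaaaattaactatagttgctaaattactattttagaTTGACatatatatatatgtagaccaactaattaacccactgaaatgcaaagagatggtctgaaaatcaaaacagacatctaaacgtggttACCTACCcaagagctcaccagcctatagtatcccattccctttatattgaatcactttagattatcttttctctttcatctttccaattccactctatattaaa
CYP79F1: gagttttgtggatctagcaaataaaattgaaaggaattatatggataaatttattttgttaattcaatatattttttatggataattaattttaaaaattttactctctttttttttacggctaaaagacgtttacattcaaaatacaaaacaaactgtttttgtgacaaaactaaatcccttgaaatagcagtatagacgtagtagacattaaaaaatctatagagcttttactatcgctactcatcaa
The CYP79F2 window held a W-box core 194 bases and an AC element 104 bases before the annotated start, which do not overlap. None of the 3 motifs was found in the CYP79F1 window. A match is a description of the letters only: TTGAC occurs in 44.9%, ACCNACC in 6.1% and CACGTG in 6.49% of the 27443 windows of this length. Among the 38 pathway genes these motifs occurred in 13, 8 and 3 windows.

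Of the other aliphatic core genes, FMOGS-OX1 (AT1G65860) rose in double deficiency. This flavin monooxygenase, which oxidises methylthioalkyl to methylsulfinylalkyl glucosinolates, stood at 43.1 and 43.6 FPKM in iron-deficient, 62.6 and 42.7 in doubly deficient, 35.5 and 34.4 in copper-deficient and 30.7 and 28.5 FPKM in control leaves. All iron-free libraries lay above those with iron, with doubly deficient 1 apart from the rest. Its change was 0.79 ± 0.17 in double deficiency (adjusted p = 0.0118) and 0.55 ± 0.17 in double against copper deficiency (0.0390), while 0.54 ± 0.17 in iron deficiency was not called (0.0536). The first call was lost under median-ratio scaling, quantile normalization, a fit of these 2 groups alone and without control 2 (adjusted p up to 0.150), and the second under 11 of 17 alternatives. In iron deficiency FMOGS-OX1 was called higher with the filter at 5 FPKM, under nuclear coding scaling, with the replicate block and in a fit of these 2 groups alone. CYP83A1 (AT4G13770), which takes the aliphatic aldoximes further, held 257 and 296 FPKM in iron-deficient and 292 and 251 FPKM in control leaves, a change of 0.03 ± 0.18 (adjusted p = 0.931). Under median-ratio scaling CYP83A1 was called lower in double deficiency against control and against copper deficiency. The glucosyltransferase UGT74C1 (AT2G31790) and the sulfotransferases SOT17 (AT1G18590) and SOT18 (AT1G74090) lay between -0.03 and 0.20 in iron deficiency and between 0.40 and 0.47 in double deficiency, close to the median of all genes, and were not called. Under nuclear coding scaling UGT74C1 was called higher in double deficiency against control and SOT18 higher in double against copper deficiency.

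The 7 aliphatic core genes had a median change of 0.14 in iron deficiency, against 0.27 for all tested genes, and 1 was called higher. Under median-ratio scaling this median was -0.15, so the aliphatic core did not rise as a group. The indolic core was lower in iron deficiency. Of its 5 genes 3 fell and all 5 had changes below 0, with a median change of -0.78, against 0.27 for all tested genes. In double deficiency against control, and against copper deficiency, 0 of 5 were called by limma, with 0 and 1 at an unadjusted p under 0.05, and the medians were -0.14 and -0.15, against 0.41 for all genes in both. Each of these medians stayed below 0 under the other 3 scalings. Median-ratio scaling called CYP79B3 (AT2G22330) and CYP83B1 (AT4G31500) lower in both of these comparisons, and quantile normalization called both lower against control and CYP79B3 lower against copper deficiency, so the calls of this group were not limited to iron deficiency under these scalings. Summed over the 5 genes, the level was 159 and 166 FPKM in iron-deficient, 279 and 195 in doubly deficient, 303 and 238 in copper-deficient and 279.6 and 280.1 FPKM in control leaves. The iron-deficient libraries were the lowest of the 8.

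CYP79B3, which forms indole-3-acetaldoxime from tryptophan and thus feeds indolic glucosinolates, camalexin and some auxin, stood at 14.3 and 14.1 FPKM in iron-deficient, 31.8 and 19.6 in doubly deficient, 46.1 and 32.0 in copper-deficient and 35.8 and 32.6 FPKM in control leaves. The iron-deficient libraries were the lowest of the 8. CYP79B3 fell by 1.21 on the log2 scale in iron deficiency (± 0.25, adjusted p = 0.0138), the largest fall among the 36 genes in this comparison. In double deficiency its change was -0.44 ± 0.25 (adjusted p = 0.205), and -0.60 ± 0.25 against copper deficiency (0.0973). CYP79B2 (AT4G39950), the second enzyme of this step, held 10.6 and 10.4 FPKM in iron-deficient, 22.4 and 12.7 in doubly deficient, 22.7 and 17.7 in copper-deficient and 21.8 and 16.1 FPKM in control leaves. It lay on the same side, at -0.78 ± 0.28, and was not called (adjusted p = 0.0756), though it was called lower under median-ratio and quantile scaling, with the replicate block and without double 1 or double 2.

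The window upstream of CYP79B3, which led the falls in iron deficiency, is shown (RefSeq, TAIR10.1, chr2:9488163-9488412, plus strand).
CYP79B3: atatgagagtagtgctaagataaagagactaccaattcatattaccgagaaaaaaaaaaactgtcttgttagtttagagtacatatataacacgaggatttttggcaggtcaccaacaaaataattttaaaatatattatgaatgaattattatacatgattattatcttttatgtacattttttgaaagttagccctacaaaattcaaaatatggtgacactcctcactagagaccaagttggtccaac
It held none of the 3 motifs.

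CYP83B1, which takes indole-3-acetaldoxime into the glucosinolate core, stood at 99.9 and 105 FPKM in iron-deficient, 154 and 113 in doubly deficient, 162 and 133 in copper-deficient and 159 and 166 FPKM in control leaves. It fell by 0.66 on the log2 scale in iron deficiency (± 0.17, adjusted p = 0.0249). SOT16 (AT1G74100), the sulfotransferase that prefers indolic substrates, held 33.5 and 35.9 FPKM in iron-deficient, 69.4 and 48.9 in doubly deficient, 72.0 and 55.2 in copper-deficient and 62.2 and 63.6 FPKM in control leaves, and fell by 0.84 (± 0.19, adjusted p = 0.0181). For both genes the iron-deficient libraries were the lowest of the 8 and the doubly deficient ones overlapped with the copper-deficient ones. CYP81F2 (AT5G57220), which modifies the finished indole ring, was low, at 0.963 and 1.40 FPKM in iron-deficient, 1.81 and 1.29 in doubly deficient, 0.467 and 0.683 in copper-deficient and 1.11 and 1.82 FPKM in control leaves, and was not called. The calls of CYP79B3, CYP83B1 and SOT16 were lost without control 1, control 2, iron 1 or iron 2, and that of CYP83B1 also with no filter and under nuclear coding scaling (adjusted p up to 0.0676, 0.108 and 0.0802). Their changes kept their sign in all 17 alternatives, from -1.50 to -0.47. That iron and double deficiency differ for these genes was not shown: the differences of double less iron deficiency were 0.77 ± 0.25 for CYP79B3 (adjusted p = 0.168), 0.36 ± 0.17 for CYP83B1 (0.281) and 0.73 ± 0.19 for SOT16 (0.114).

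**Figure D2:**
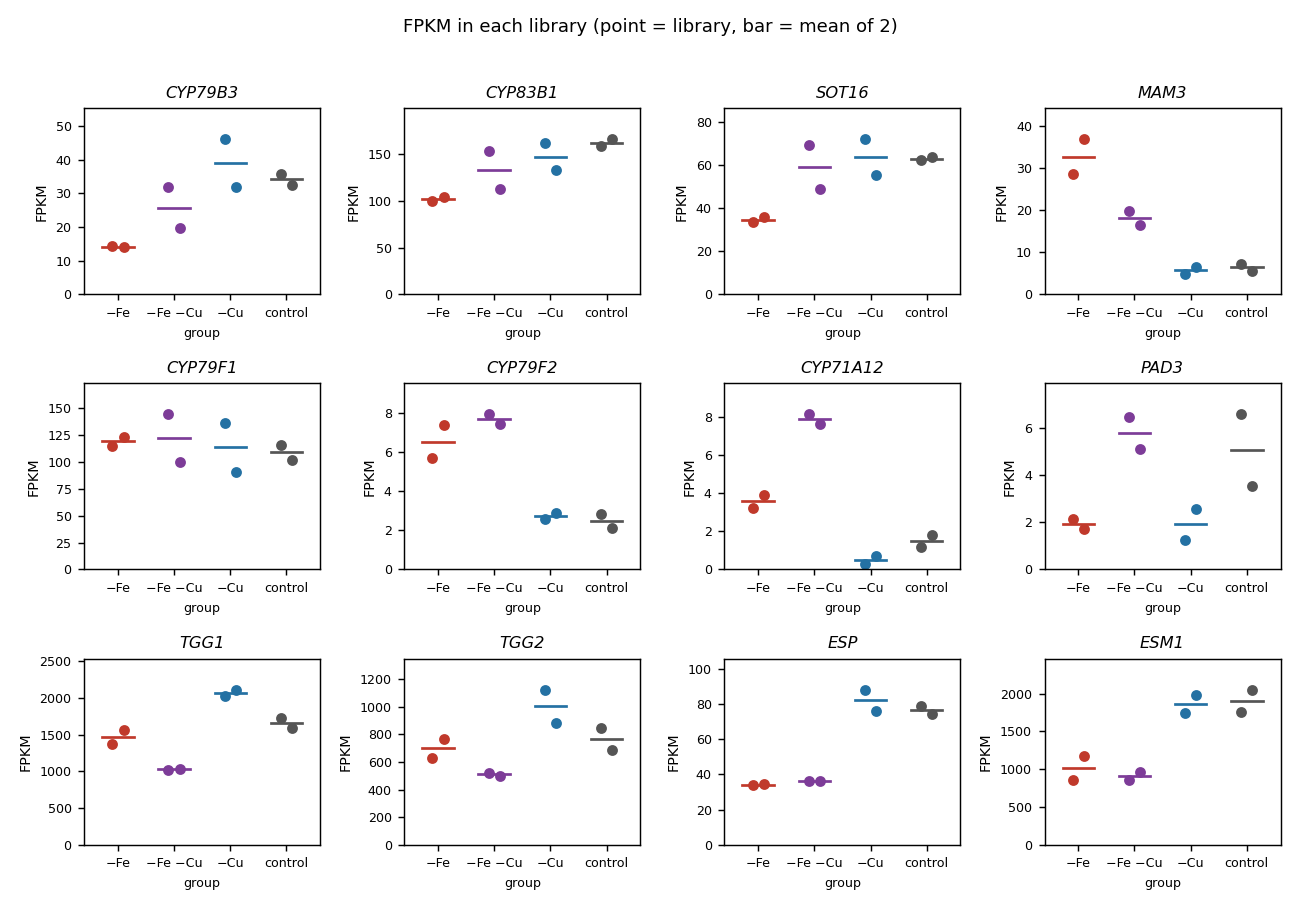
FPKM in each library (points) with the mean of 2 (bars) for 12 pathway genes in iron deficiency (-Fe), double deficiency (-Fe -Cu), copper deficiency (-Cu) and control, each on its own linear axis from 0. CYP79B3, CYP83B1 and SOT16 are lowest in iron deficiency, MAM3 and CYP79F2 are higher in every library without iron, and ESP and ESM1 are lower in every library without iron.

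Of the 3 enzymes that serve both branches, 1 was called, in double deficiency against control. GGP1 (AT4G30530), a peptidase that processes the glutathione conjugate, stood at 217 and 235 FPKM in iron-deficient, 308 and 252 in doubly deficient, 232 and 205 in copper-deficient and 203 and 198 FPKM in control leaves. It rose by 0.47 (± 0.12) in double deficiency (adjusted p = 0.0229), which is close to the 0.41 of the median gene. The call was lost under median-ratio and quantile scaling and without control 1, control 2 or double 1 (adjusted p up to 0.885). The C-S lyase SUR1 (AT2G20610) changed by -0.13 ± 0.12 in iron deficiency and by 0.02 ± 0.12 in double deficiency. The glucosyltransferase UGT74B1 (AT1G24100) changed by 0.04 ± 0.17 and 0.46 ± 0.17, and neither was called on the deposited FPKM. Under median-ratio scaling SUR1 was called lower in both comparisons and in double against copper deficiency, and in the last also under quantile scaling. UGT74B1 was called higher in double deficiency against control under nuclear coding scaling.

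The 2 camalexin genes tested were at a few FPKM and differed from each other in iron deficiency, where CYP71A12 (AT2G30750) rose and PAD3 (AT3G26830) had a value below 0 that was not called. CYP71A12, a P450 that turns indole-3-acetaldoxime into indole-3-acetonitrile, stood at 3.25 and 3.93 FPKM in iron-deficient, 8.15 and 7.65 in doubly deficient, 0.288 and 0.729 in copper-deficient and 1.18 and 1.81 FPKM in control leaves. No group overlapped with another. The authors' confidence bounds imply as few as 1.63 fragments for CYP71A12 in a library, so its low values are uncertain. CYP71A12 averaged 7.90 ± 0.347 FPKM in double deficiency, against 0.508 ± 0.312 FPKM in copper deficiency and 1.49 ± 0.448 FPKM in controls. The log2 change was 1.85 ± 0.22 against control (adjusted p = 0.00156) and 2.58 ± 0.22 against copper deficiency (0.000503), the highest of the 36 genes in both comparisons. In iron deficiency CYP71A12 rose by 0.89 ± 0.22 (adjusted p = 0.0258), a call lost under 9 of 17 alternatives, which include the smaller pseudocount of 0.1, median-ratio and quantile scaling and the omission of control 1, iron 1, iron 2 or double 2 (adjusted p up to 0.149).

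The window upstream of CYP71A12 is shown because W-box cores bear on camalexin genes through WRKY33, a known activator of the pathway (RefSeq, TAIR10.1, chr2:13101372-13101621, minus strand, printed 5′ to 3′ of the gene).
CYP71A12: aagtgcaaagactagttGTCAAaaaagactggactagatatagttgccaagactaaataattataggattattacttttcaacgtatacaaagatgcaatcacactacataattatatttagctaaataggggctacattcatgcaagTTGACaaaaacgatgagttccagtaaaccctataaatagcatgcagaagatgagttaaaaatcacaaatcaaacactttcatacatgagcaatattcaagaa
It held W-box cores 233 and 102 bases before the annotated start. The CYP71A13 window held W-box cores as well, while none was found in that of PAD3, the other camalexin gene tested. TTGAC occurs in 44.9% of all windows, and binding was not tested.

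CYP71A13 (AT2G30770), the better known enzyme of this step, was listed at 0 in all 8 libraries and was not tested. Its coding sequence is 90.4% identical to that of CYP71A12, with an identical run of up to 59 bases. Its locus, chromosome 2 from 13109909 to 13111988, also overlaps by 572 bases with AT2G30766, which was listed at 467 and 525 FPKM in iron-deficient, 542 and 577 in doubly deficient, 11.6 and 56.9 in copper-deficient and 33.5 and 21.2 FPKM in control leaves. An exact 0 in these files can be a failed estimate, and the libraries carry no strand, so the 0 of CYP71A13 is not read as absence of its transcript.

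PAD3, the P450 that closes the camalexin ring, stood at 2.11 and 1.73 FPKM in iron-deficient, 6.43 and 5.09 in doubly deficient, 1.26 and 2.57 in copper-deficient and 6.55 and 3.53 FPKM in control leaves. Libraries of either single deficiency lay below those of control and double deficiency. PAD3 rose by 1.24 ± 0.32 in double against copper deficiency (adjusted p = 0.0218), while its change was -1.005 ± 0.32 in iron deficiency (0.0550), -1.04 ± 0.32 in copper deficiency (0.946) and 0.20 ± 0.32 in double deficiency against control (0.641). The interaction (the double-deficiency change minus both single-deficiency changes) was 2.25 ± 0.46 for PAD3 (adjusted p = 0.140) and 1.69 ± 0.32 for CYP71A12 (0.116), and was not called for either. The call of PAD3 was lost without copper 1, double 1 or double 2, with no filter, and under median-ratio and quantile scaling (adjusted p up to 0.107). In iron deficiency PAD3 was called lower under median-ratio and quantile scaling and without control 2, copper 1 or copper 2, and under both scalings CYP71A12 lost its call, so that the 1 camalexin call was then a lower one.

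Of the 8 genes of breakdown and export, 3 fell in iron deficiency, 5 in double deficiency against control and 5 in double against copper deficiency, where 1 rose. The 3 in iron deficiency were ESP, ESM1 and the transporter PEN3, and 2 of the 8 lay above 0 there. The median changes of the 8 genes were -0.16, -0.64 and -0.72, against 0.27, 0.41 and 0.41 for all genes. The first turned to 0.03 under nuclear coding scaling. Some of them are among the most abundant transcripts of the pathway: summed over the 8 genes, the level was 3145 and 3827 FPKM in iron-deficient, 2702 and 2786 in doubly deficient, 5218 and 5299 in copper-deficient and 4721 and 4675 FPKM in control leaves.

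ESP (AT1G54040), the epithiospecifier protein, which turns myrosinase products towards epithionitriles and nitriles, stood at 33.9 and 34.4 FPKM in iron-deficient, 36.4 and 36.1 in doubly deficient, 88.2 and 75.9 in copper-deficient and 78.7 and 74.4 FPKM in control leaves. The 4 libraries without iron lay close together and below the 4 with iron. ESP averaged 34.2 ± 0.372 FPKM in iron deficiency and 76.6 ± 3.06 FPKM in controls, and fell by 1.14 on the log2 scale (± 0.10, adjusted p = 0.000707). Its log2 change was -1.06 ± 0.10 in double deficiency (adjusted p = 0.000599) and -1.15 ± 0.10 in double against copper deficiency (0.000438). Its upstream window is shown since ESP had the lowest adjusted p of the 36 genes in these 3 comparisons (RefSeq, TAIR10.1, chr1:20173950-20174199, minus strand, printed 5′ to 3′ of the gene).
ESP: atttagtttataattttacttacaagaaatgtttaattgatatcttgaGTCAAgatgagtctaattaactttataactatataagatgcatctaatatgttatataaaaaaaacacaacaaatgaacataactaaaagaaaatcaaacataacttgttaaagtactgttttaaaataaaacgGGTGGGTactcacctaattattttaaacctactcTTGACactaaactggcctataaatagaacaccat
It held W-box cores 202 and 34 bases and an AC element, on the opposite strand, 68 bases before the annotated start.

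ESM1 (AT3G14210), the epithiospecifier modifier, is known to favour isothiocyanates over nitriles, the opposite direction to ESP. It stood at 854 and 1176 FPKM in iron-deficient, 854 and 961 in doubly deficient, 1746 and 1984 in copper-deficient and 1752 and 2053 FPKM in control leaves. Every library without iron lay below every library with iron. ESM1 fell in all 3 comparisons, with log2 changes of -0.92 ± 0.19 in iron deficiency (adjusted p = 0.0125), -1.07 ± 0.19 in double deficiency (0.00533) and -1.04 ± 0.19 in double against copper deficiency (0.00574). The iron call was lost with no filter, under quantile scaling, in a fit of these 2 groups alone and without control 2 (adjusted p up to 0.0834).

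The nitrile-specifier proteins NSP1 (AT3G16400) and NSP5 (AT5G48180) were not called on the deposited FPKM. NSP1 stood at 39.6 and 40.9 FPKM in iron-deficient, 56.2 and 38.6 in doubly deficient, 45.2 and 34.1 in copper-deficient and 52.5 and 31.1 FPKM in control leaves, so that all groups overlapped with control. NSP5 held 73.9 and 76.4, 65.4 and 65.1, 53.4 and 40.9, and 70.3 and 52.8 FPKM in iron, double and copper deficiency and in controls, with a change of 0.47 ± 0.17 in double against copper deficiency (adjusted p = 0.0629). In that comparison NSP5 was called higher under nuclear coding scaling and with the replicate block.

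The myrosinases TGG1 (AT5G26000) and TGG2 (AT5G25980), abundant in guard cells and myrosin cells, fell in double deficiency. TGG1 stood at 1369 and 1567 FPKM in iron-deficient, 1024 and 1035 in doubly deficient, 2025 and 2115 in copper-deficient and 1728 and 1591 FPKM in control leaves, and none of the groups overlapped. It fell by 0.69 on the log2 scale in double deficiency against control (± 0.12, adjusted p = 0.00479). Its change was -1.01 ± 0.12 against copper deficiency (0.00127), and in iron deficiency it was -0.18 ± 0.12 (0.279). Under median-ratio scaling TGG1 was called lower in iron deficiency as well. TGG2 held 632 and 766 FPKM in iron-deficient, 521 and 498 in doubly deficient, 1125 and 886 in copper-deficient and 850 and 686 FPKM in control leaves. It fell by 0.58 in double deficiency against control (± 0.17, adjusted p = 0.0345), with a change of -0.97 ± 0.17 against copper deficiency (0.00573). Against control, the call of TGG2 was lost without control 1, double 1 or double 2, with no filter and under nuclear coding scaling (adjusted p up to 0.160), and that of TGG1 with no filter and under quantile scaling (up to 0.142). The coding sequences are 82.7% identical, with an identical run of up to 55 bases.

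Of 6 guard cell markers, 2 rose (FAMA and MYB60) and 1 fell (KAT1) in iron deficiency and again in double deficiency. Their summed level was 56.4 and 64.2 FPKM in iron-deficient, 84.0 and 70.9 in doubly deficient, 52.2 and 90.3 in copper-deficient and 68.2 and 129 FPKM in control leaves, so that both iron-deficient sums lay below both control and both doubly deficient sums, and the copper-deficient sums overlapped with those of every other group. The anion channel SLAC1 was listed at 0 in 4 of 8 libraries. The part of guard cells in the fall of TGG1 and TGG2 was not tested.

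PEN3 (AT1G59870), a plasma membrane ABC transporter, and PEN2 (AT2G44490), an atypical myrosinase, act together in the defence of leaves against fungi. PEN3 stood at 78.2 and 87.1 FPKM in iron-deficient, 66.4 and 65.0 in doubly deficient, 82.6 and 100.3 in copper-deficient and 119.6 and 116 FPKM in control leaves. It was highest in controls and lowest in double deficiency, and fell in all 3 comparisons. Its log2 change was -0.51 ± 0.11 in iron deficiency (adjusted p = 0.0171), -0.83 ± 0.11 in double deficiency (0.00224) and -0.46 ± 0.11 in double against copper deficiency (0.0177). The call in iron deficiency was lost without control 1, control 2 or iron 1 (adjusted p up to 0.0740), and that against copper deficiency without copper 2, double 1 or double 2 and in a fit of these 2 groups alone (up to 0.0807). PEN2 held 64.4 and 79.8 FPKM in iron-deficient, 79.8 and 86.7 in doubly deficient, 52.4 and 63.6 in copper-deficient and 70.1 and 70.7 FPKM in control leaves. It rose by 0.52 in double against copper deficiency (± 0.14, adjusted p = 0.0240), a call lost under median-ratio and quantile scaling, in a fit of these 2 groups alone and without copper 1, double 1 or double 2 (up to 0.696).

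Copper deficiency against control called 0 of the 36 pathway genes, and 0.183% of all tested genes, with 5 of 36 (13.9%) and 4.89% at an unadjusted p under 0.05. The pathway genes with the lowest values were PAD3, at -1.04 ± 0.32, CYP71A12, at -0.73 ± 0.22, and CYP81F2, at -0.63 ± 0.25 (limma adjusted p = 0.946 for each). In double against iron deficiency 0 were called by limma, while 1.14% of all genes were called. At an unadjusted p under 0.05 there were 10 of 36 (27.8%), against 20.4% of all genes. Here all 5 indolic genes had changes above 0, with a median of 0.63, against 0.15 for all genes. The interaction called 0 of 36 by limma and 0.589% of all genes, with 6 of 36 (16.7%) and 13.5% at an unadjusted p under 0.05. Its lowest adjusted p, apart from those of the camalexin genes, was that of TGG1, at -0.83 ± 0.16 (adjusted p = 0.135). TGG1 was called under median-ratio scaling in the interaction and in double against iron deficiency, and MAM3 under quantile normalization in double against iron deficiency.

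Removal of iron was measured against 2 separate references, in plants with copper (iron deficiency against control) and without it (double against copper deficiency), which share no library. Called in the same direction in both were 6 genes: MAM3, CYP79F2 and CYP71A12 rose and ESP, ESM1 and PEN3 fell. They make up 66.7% of the 9 genes called with copper present and 54.5% of the 11 called without it, and 0 genes were called in opposite directions. Across the 36 genes, 26 had the same sign, and the changes had a Pearson r of 0.65 and a Spearman rho of 0.68, against an r of 0.55 over all 19170 genes. These are correlations across genes, which are not independent replicates. Shared calls and shared signs were not counted over all tested genes, so these counts are not read as particular to the pathway. PAD3 lay furthest from the line of equal change, at -1.005 with copper and 1.24 without it.

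**Figure D3:**
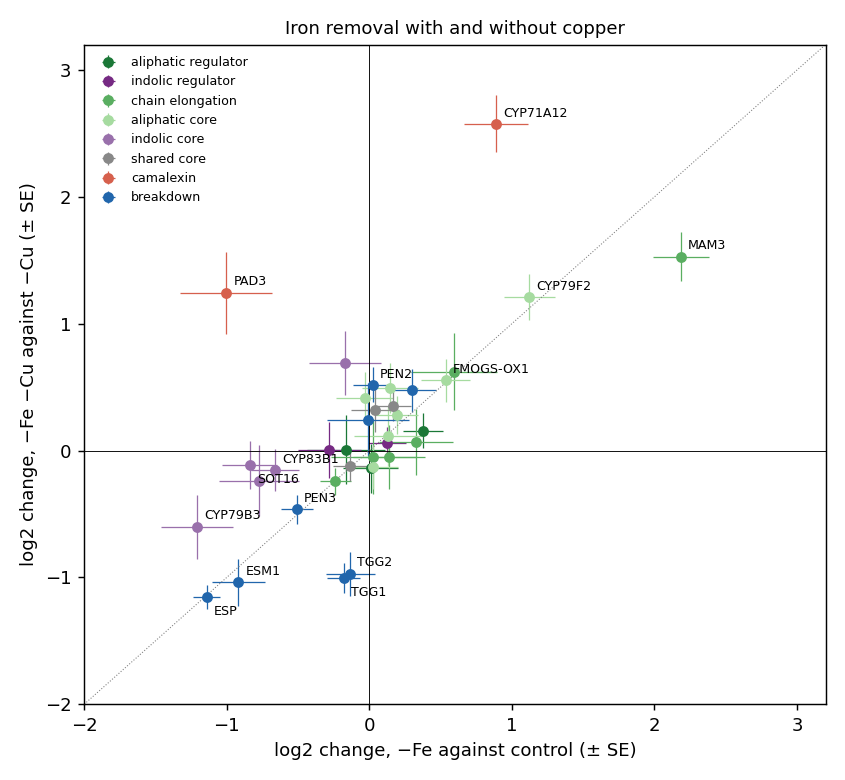
Log2 change of FPKM + 1 (± SE) of the 36 pathway genes on iron removal in plants without copper (y axis, double against copper deficiency) and with copper (x axis, iron deficiency against control). The dotted line marks equal change, and the called genes are labelled. MAM3 and CYP79F2 lie at the upper right, ESP, ESM1 and PEN3 at the lower left, and PAD3, CYP71A12, TGG1 and TGG2 away from the line.

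A further 57 genes of the pathway, its regulators, sulfur supply and transport were looked at alongside, of which 49 were tested. In iron deficiency 9 rose and 6 fell, in double deficiency 11 rose and 4 fell, and in double against copper deficiency 12 rose and 3 fell. Copper deficiency, double against iron deficiency and the interaction called 0 of them by limma, with 2, 7 and 6 at an unadjusted p under 0.05. The background shares are those given above for all genes.

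Of 9 further regulators, 4 rose in iron deficiency, and 5 rose and 1 fell in double deficiency. MYC2, the jasmonate-responsive partner of the glucosinolate MYB factors, stood at 25.9 and 28.1 FPKM in iron-deficient, 39.6 and 35.8 in doubly deficient, 30.6 and 16.6 in copper-deficient and 17.9 and 11.6 FPKM in control leaves, and rose by 1.32 ± 0.30 in double deficiency (adjusted p = 0.0141). OBP2, a DOF factor tied to indolic glucosinolates, rose by 0.97 ± 0.21 in iron deficiency (0.0165) and SLIM1, the sulfur-limitation regulator, by 0.68 ± 0.13 (0.00957). In double deficiency the calls of these 3 genes were lost under median-ratio and quantile scaling, that of MYC2 also without control 2 or double 1 (adjusted p up to 0.0721) and that of OBP2 without either control or either double library (up to 0.228). In iron deficiency OBP2 lost its call without control 1, control 2 or iron 2 (up to 0.0879) and SLIM1 without iron 2 (up to 0.109), both also under quantile scaling. SDI1, a sulfur-deficiency gene whose product represses MYB28 activity, held 8.14 and 4.91 FPKM in iron-deficient, 2.32 and 2.60 in doubly deficient, 4.66 and 5.15 in copper-deficient and 7.18 and 5.75 FPKM in control leaves. It fell by 1.10 in double deficiency (± 0.23, adjusted p = 0.0103), a call lost without control 1 or double 1 (up to 0.0551).

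Among further indolic enzymes, 4 of 11 fell and 1 rose in iron deficiency, and 2 fell and 1 rose in double deficiency. The glutathione transferases GSTF10 and GSTU13 fell in iron deficiency, with log2 changes of -0.91 ± 0.17 (adjusted p = 0.0101) and -0.88 ± 0.19 (0.0151). GSTF9 also fell, and so did ASA1, the anthranilate synthase subunit that controls entry into tryptophan synthesis, which stood at 14.8 and 12.6 FPKM in iron-deficient and 23.3 and 21.9 FPKM in control leaves. CYP81F1, which like CYP81F2 hydroxylates the indole ring, rose. It held 8.59 and 8.51 FPKM in iron-deficient, 10.7 and 5.73 in doubly deficient, 1.96 and 2.04 in copper-deficient and 1.97 and 2.46 FPKM in control leaves, a change of 1.57 ± 0.26 in iron deficiency (adjusted p = 0.00673) that held under all 17 alternatives. GSTF10 lost its call without control 2 or iron 2 (adjusted p up to 0.0601), GSTU13 without control 2 and in a fit of these 2 groups alone (up to 0.0788), ASA1 without control 1, control 2 or iron 2 (up to 0.0922) and GSTF9 under 8 of 17 alternatives (up to 0.148).

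Of 12 further aliphatic enzymes tested, 1 rose and 1 fell in iron deficiency, and 3 rose and 1 fell in double deficiency. GSL-OH, a dioxygenase that hydroxylates alkenyl glucosinolates, stood at 250.5 and 266 FPKM in iron-deficient, 412 and 366 in doubly deficient, 205 and 182 in copper-deficient and 232 and 199 FPKM in control leaves. It rose by 0.85 ± 0.12 in double deficiency against control (adjusted p = 0.00241), and this call held under all 17 alternatives. GSTF11 rose by 1.10 ± 0.27 in double deficiency (0.0177), and FMOGS-OX5 fell by 0.41 (± 0.10, 0.0163). GSTF11 lost this call without control 1, control 2 or double 1 and under median-ratio and quantile scaling (adjusted p up to 0.106), and FMOGS-OX5 without either control or either double library (up to 0.0814). The rises of IMD3, of 0.36 in iron and 0.42 in double deficiency, were close to the median of all genes, and in double deficiency its change turned to -0.01 under median-ratio scaling.

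The 3 glucosinolate transporters tested rose in iron deficiency. GTR1 stood at 59.4 and 62.9 FPKM in iron-deficient, 66.6 and 67.3 in doubly deficient, 37.97 and 37.6 in copper-deficient and 41.0 and 36.6 FPKM in control leaves, with a change of 0.64 ± 0.09 in iron deficiency (adjusted p = 0.00353). GTR2 held 41.0 and 44.2, 43.6 and 39.8, 21.0 and 18.4, and 26.3 and 21.9 FPKM in iron, double and copper deficiency and in controls, and rose by 0.80 ± 0.12 in iron deficiency (0.00535). GTR3 rose by 0.94 ± 0.17 in iron deficiency (0.00916), a call lost without control 2 or iron 2 (up to 0.0530), and was not called in double deficiency (0.46 ± 0.17, 0.0706). GTR1 and GTR2 load glucosinolates into the phloem. Of 5 phloem markers 3 rose and 0 fell in iron deficiency, and 3 rose and 1, SUC2, fell in double deficiency. The markers summed to 154 and 192 FPKM in iron-deficient, 163 and 175 in doubly deficient, 109 and 117 in copper-deficient and 109 and 103 FPKM in control leaves. Their part in the rise of the transporters was not tested.

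The 7 genes of sulfur donor supply, which make activated sulfate for sulfotransferases and reduced sulfur for glutathione, were called by limma in 0 of 6 comparisons, with 1 at an unadjusted p under 0.05, in copper deficiency, and with changes between -0.13 and 0.11 in iron deficiency. Of 5 further breakdown genes tested, 0 were called by limma in any comparison, with 1 at an unadjusted p under 0.05 in double deficiency against control and 1 against copper deficiency. Around camalexin, the glutathione transferase GSTF6, like PAD3, lay lower in each single deficiency: it stood at 44.0 and 35.1 FPKM in iron-deficient, 83.9 and 80.8 in doubly deficient, 37.5 and 48.5 in copper-deficient and 70.4 and 101 FPKM in control leaves. GSTF6 fell by 1.08 in iron deficiency (± 0.21, adjusted p = 0.0109) and rose by 0.93 in double against copper deficiency (± 0.21, 0.0131), with an interaction of 2.02 ± 0.30 that was not called (0.0599). The WRKY33 transcript held 12.1 and 10.5, 17.1 and 16.9, 5.56 and 10.4, and 11.4 and 9.43 FPKM in iron, double and copper deficiency and in controls, and rose by 1.06 ± 0.26 in double against copper deficiency (0.0172). The call of GSTF6 in iron deficiency was lost without iron 2 and in a fit of these 2 groups alone (up to 0.0636), that against copper deficiency without copper 1, double 1 or double 2 and under both scalings (up to 0.182), and that of WRKY33 without double 1 or double 2, in a fit of these 2 groups alone and under both scalings (up to 0.122).

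**Figure D4:**
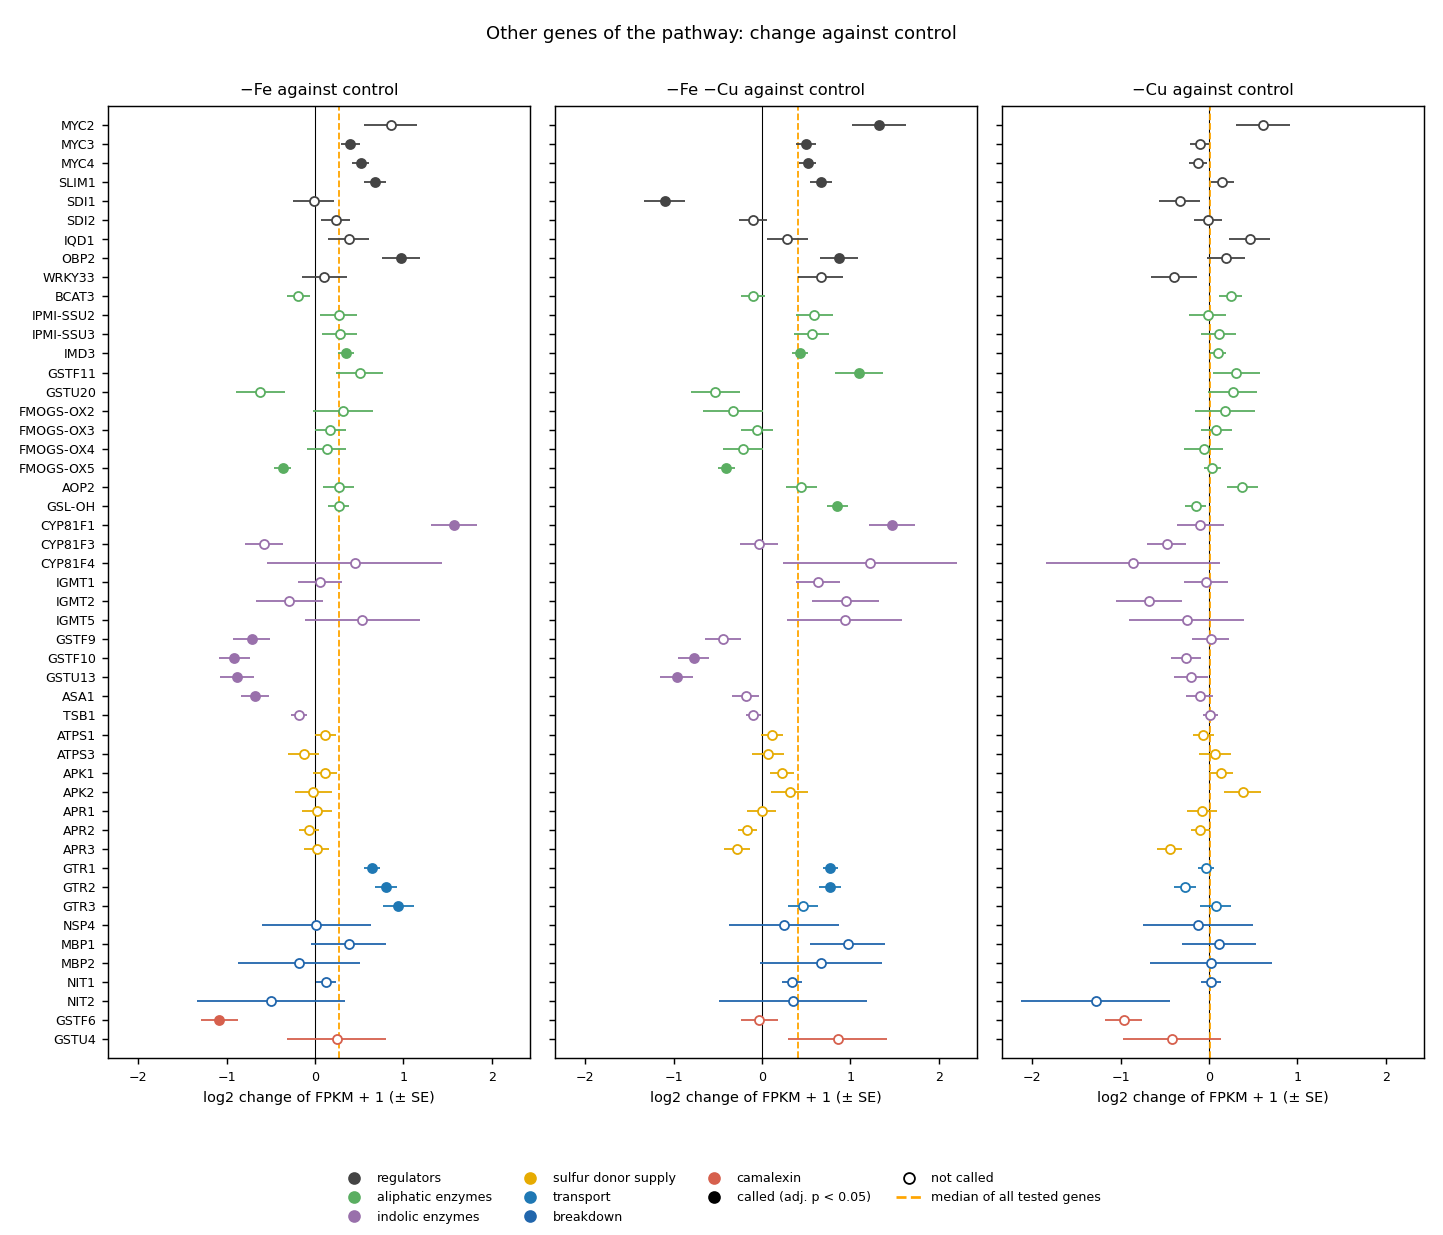
Log2 change of FPKM + 1 (± SE) for the 49 tested further genes of the pathway in iron deficiency (-Fe), double deficiency (-Fe -Cu) and copper deficiency (-Cu), each against control. Filled points are called, and the dashed line is the median of all tested genes. CYP81F1, GTR1 and GTR2 are called higher in the iron and double panels, GSTF10 and GSTU13 are called lower in both, and none is called in the copper panel.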

How the data were processed

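RNA of rosette leaves was sequenced without strand information in 8 libraries of 4 groups. The authors deposited a table of FPKM for each library. Trimmomatic, Cufflinks, Cuffdiff and TopHat2 2.1.1 were used, per the submitters' processing notes, while build, annotation and between-library scaling are not given in the sources. Coordinates (1 added to the start) equalled those of TAIR10.1 for all 38 genes, from which upstream sequences were read. The authors' file marks 1 entry as not estimated, which was left out.

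Genes reaching 1 FPKM in 2 or more libraries were fitted as log2(FPKM + 1) with limma 3.58.1 (lmFit, eBayes with a trend; R 4.3.3), all groups in a common model and no replicate block. Benjamini-Hochberg adjustment covered 19170 genes, and the procedure was tested on simulated data. Relative depth came from the widths of the authors' confidence bounds in 15077 genes under a Poisson model.

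The genes, lists and tests were chosen with earlier results of these data known. Values are given for called pathway genes and for the regulators and entry enzymes of each branch, and from each further list for up to 4 called genes with the largest change. WRKY33, ASA1 and pathway genes outside this rule were named after their values were seen. Alternatives were other pseudocounts (0.1 and 0.5), filters (none, 5 FPKM), scalings (median-ratio, quantile, nuclear coding), a replicate block, a fit of the compared groups alone and the omission of each library. Comparisons with a shared control or a shared deficient group are not independent.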

Additional observations from a re-analysis of the deposited data

Results flagged for a closer look

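The phloem sucrose transporter SUC2, a marker checked beside the glucosinolate transporters, differed in its response to iron removal between plants without and with copper. It stood at 34.4 and 36.5 FPKM in doubly deficient, 65.5 and 75.5 in iron-deficient, 74.0 and 76.6 in copper-deficient and 71.7 and 63.6 FPKM in control leaves. The interaction was -1.12 ± 0.15 (limma adjusted p = 0.0429) and was kept in 4 of 16 alternatives. It was lost without any of the 8 libraries, with adjusted p up to 0.240. What lies behind it was not tested.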

How the results depend on the processing

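Of 30 calls of pathway genes, 16 held under all 17 alternatives and 0 changed direction: MAM3, CYP79F2 and ESP in the 3 comparisons with calls, CYP71A12, ESM1 and PEN3 in double deficiency against control, and CYP71A12, TGG1, TGG2 and ESM1 against copper deficiency. The cause of each change given next was not tested.

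In iron deficiency, 3 genes higher became 5 under nuclear coding scaling, and 6 genes lower became 11 under median-ratio scaling. In double deficiency against control, 5 higher became 3 under median-ratio, 3 under quantile and 9 under nuclear coding scaling, and 5 lower became 3 with no filter and 10 under median-ratio scaling. In double against copper deficiency, 6 higher became 3 under median-ratio, 3 under quantile and 10 under nuclear coding scaling, and 5 lower became 11 under median-ratio and 9 under quantile scaling. In double against iron deficiency 1 gene was lower under median-ratio and 1 under quantile scaling, and in the interaction 1 under median-ratio scaling, in place of 0.

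Without each library in turn, the counts in iron deficiency ranged from 2 to 5 higher (5 without double 1) and from 2 to 7 lower. In double deficiency against control 3 (without control 2) to 10 (without double 2) were higher, and in double against copper deficiency 3 (without double 1) to 8. Of 62 calls of other genes 23 held under all alternatives. IMD3 changed sign in double deficiency against control under median-ratio scaling (-0.0137) and against copper deficiency under median-ratio (-0.120) and quantile scaling (-0.0237).

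Replicate numbers are shared between groups, but the labels do not say that they pair libraries. The titles also carry letters, A and B in control, iron and double deficiency but B and C in copper deficiency. Number and letter thus do not match across groups, and what the letters stand for is not given. Deviations of same-numbered libraries correlated at -0.04 to 0.02 over all genes and at 0.20 to 0.53 over the pathway genes. With the number as a replicate block, all 30 calls were kept, and FMOGS-OX1 and CYP79B2 in iron deficiency, BCAT4 in double deficiency and CYP79B3 and NSP5 against copper deficiency were added. Depth limits genes of a few FPKM, such as CYP71A12, CYP81F2 and PAD3, and 2 libraries a group limit every p-value.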
